A study of Mus musculus with 4 samples.

Results

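The genes described here are 10 core members of the RB and p53 tumor suppressor pathways in subcutaneous mouse tumors: Rb1, Rbl1, Rbl2, Trp53, Mdm2, Mdm4, Cdkn1a, Cdkn1b, Cdkn2a and Sesn2. They were taken by symbol from a deposited FPKM table (fragment counts scaled to transcript length and to library size) that lists 15424 genes, and all 10 were found. All 10 also had a mean of at least 1 FPKM over the table's columns, as did 11650 genes in all, and 6 had a mean of at least 5 FPKM. The tumors grew in nude mice from transplanted R728T1 cells, which the labels describe as non-SMCs of an Rb/P53 mouse model. One group carried an shRNA against luciferase (shLuc, the control) and the other a knockdown of Taz (shTaz), with 2 samples labelled for each. Both groups therefore share the Rb/P53 background of the cells, the nude host and the site of growth. The labels give no age of the animals, no Cre driver, no shRNA sequence, and neither the altered alleles of Rb1 and Trp53 nor the exons they lack.

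The table holds 1 FPKM column per group, read as the authors' value for that group, and "with shLuc" or "with shTaz" below means the value in that column. No spread between replicates can be computed, so no difference below has an error, a test or a p-value, and none has a replicate check. The sequencing depth is unknown. Differences are log2((shTaz FPKM + 1) / (shLuc FPKM + 1)), a scale that understates changes of genes near or under 1 FPKM. Each is set beside the spread of all 11650 genes, whose median difference was 0.12.

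Small cell lung cancer is the labelled cell type, and markers of that cancer, most of them neuroendocrine, were low or missing for the most part. Of 14 such markers 8, among them Neurod1, Chga and Calca, were not among the listed genes. Insm1 was at 0.169 FPKM with shLuc and listed at 0 with shTaz, and Syp was at 0.557 and 0.447 FPKM. The 4 markers with a mean of at least 1 FPKM differed in both directions. Ncam1 was at 39.8 and 43.8 FPKM with shLuc and shTaz and Sox2 at 3.59 and 10.2 FPKM, whereas Uchl1 was at 10.1 and 1.51 FPKM and Nkx2-1 at 2.51 and 0.939 FPKM. The tumors are from bulk tissue of a mouse grown in a mouse, so RNA of the nude host's own cells, including any Rb1 and Trp53 RNA they make, is counted together with that of the transplanted cells. In such samples fewer cells of a type and less RNA per cell cannot be told apart.

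RB, encoded by Rb1, and its relatives p107 (Rbl1) and p130 (Rbl2) bind E2F transcription factors and hold back the genes needed for DNA replication until cyclin-dependent kinases (CDKs) phosphorylate them. CDK inhibitors of the INK4 and CIP/KIP families keep those kinases in check. The transcription factor p53 (Trp53) responds to DNA damage and oncogenic stress, is held low by the MDM2 and MDM4 proteins, and switches on Cdkn1a, Mdm2 and Sesn2. Loss of both RB and p53 is a hallmark of small cell lung cancer. Cdkn2a links the pathways, since it encodes both p16INK4a, which inhibits CDK4 and CDK6, and p19ARF, which inhibits MDM2.

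Cdkn2a makes its proteins from alternative first exons joined to a shared second exon, and the sequences across these junctions show why a value per gene cannot separate them. They come from the GENCODE M21 transcripts of mm10 (GRCm38), minus strand of chromosome 4, with the last 30 coding bases of the first exon in lower case and the first 30 bases of the shared exon 2 in capitals.
p16INK4a transcript: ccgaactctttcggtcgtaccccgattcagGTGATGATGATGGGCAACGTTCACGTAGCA
p19ARF transcript: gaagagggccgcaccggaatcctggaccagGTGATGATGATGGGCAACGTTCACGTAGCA
The first exon of the p16INK4a transcript lies at chr4:89281986-89282192 and that of the p19ARF transcript at chr4:89294334-89294653. Exon 2 lies at chr4:89276645-89276985 in both. The first exon of the p16INK4a transcript ends after a complete codon (126 coding bases), whereas that of the p19ARF transcript ends 1 base into a codon (190 coding bases). The capitals are therefore read in different frames, giving proteins of 168 and 169 residues from transcripts of 852 and 895 bases. The deposited table has a single Cdkn2a value per column that covers both.

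RefSeq promoter windows (GRCm38.p6, 250 bases before to 50 after each annotated start) were available for 9 of the 10 genes, 12 windows in all, and were searched on both strands for E2F and p53 sites, because E2F and p53 are known to act on genes of their own pathways. An E2F site was searched as TTTCCCGC, TTTCGCGC, TTTGCCGC or TTTGGCGC. It occurred in 2 of the 12 windows and in 2.26% of all 32851 windows. Both windows are shown upstream of their start with the site in capitals, that of Rbl1 at chr2:157204535-157204614 (minus strand) and that of the p19ARF start of Cdkn2a at chr4:89294675-89294754 (minus strand).
Rbl1: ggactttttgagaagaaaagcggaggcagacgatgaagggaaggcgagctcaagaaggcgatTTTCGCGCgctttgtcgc
Cdkn2a: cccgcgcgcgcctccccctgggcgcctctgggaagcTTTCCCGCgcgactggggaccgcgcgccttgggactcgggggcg
A p53 response element, taken as a pair of consensus half-sites of 10 bases with a spacer of at most 13 bases and no mismatch, occurred in 1 of the 12 windows and in 0.0731% of all windows. That window belongs to the upstream start of Cdkn1a, and 80 bases of it at chr17:29090882-29090961 (plus strand) are shown with the half-sites, 12 bases apart, in capitals.
Cdkn1a: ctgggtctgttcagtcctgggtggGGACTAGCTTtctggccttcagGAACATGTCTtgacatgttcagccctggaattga
In this window the bases directly after the second half-site, tgacatgttc, differ from the half-site consensus at their first base only. They are not in capitals because no mismatch was allowed, so the marked pair need not be the pair that p53 uses. A match describes letters, and binding was not measured in these tumors. Sites outside these short windows were not searched, so a window without a match does not mean a gene without a site. The gene with the E2F site and a single start, Rbl1, was at 1.53 FPKM with shLuc and 2.29 FPKM with shTaz. The gene with the p53 element, Cdkn1a, was at 20.4 and 26.0 FPKM.

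The levels of the 10 genes spanned a wide range, and their order was nearly the same in both columns. Cdkn2a was the most abundant, followed by Cdkn1b, Cdkn1a, Trp53, Mdm2 and Rbl2, and Rb1 was the least abundant in both. Sesn2 and Mdm4 changed places between ranks 7 and 8. With no spread, whether neighbours in this order differ cannot be said. FPKM is scaled to transcript length, so levels can be set side by side between genes, within the limits of that scaling. In the shLuc column the Cdkn2a level was 550-fold that of Rb1, and with shTaz 145-fold. With the GC and length trends described below removed, the 2 genes differed little between the columns (-0.02 and 0.12).

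**Figure D1:**
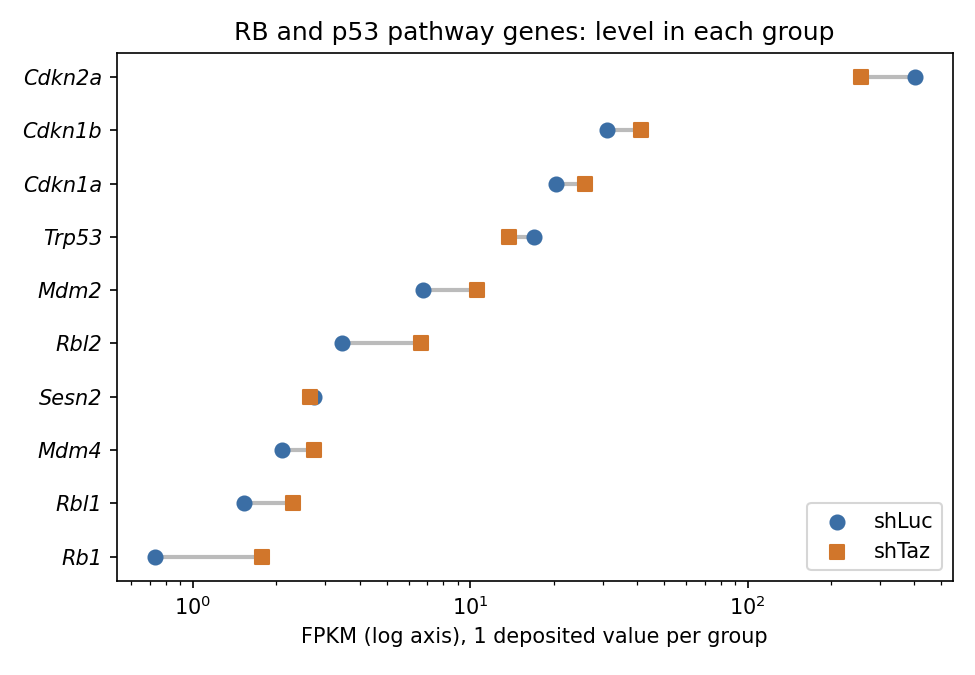
FPKM of each of the 10 genes (x axis, log scale) with shLuc (circles) and with shTaz (squares), with genes ordered by their shLuc level and 1 deposited value per group. Cdkn2a lies above 250 FPKM in both columns, while Rb1 lies at 0.728 and 1.77 FPKM.

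No gene of the 10 differed by 2-fold or more, where 7.21% of all genes did (3.96% higher and 3.25% lower with shTaz). At the smaller size of 1.5-fold, Rbl2 and Rb1 were higher with shTaz and Cdkn2a was lower. That is 2 of 10 higher, beside 17.3% of all genes, and 1 of 10 lower, beside 9.96% of all genes. In direction, 7 genes were higher and 3 lower with shTaz, where 58.3% of all genes were higher. Quantile normalization brought all 10 under 1.5-fold, with Rbl2 at 0.58, Rb1 at 0.56 and Cdkn2a at -0.35. The median of the 10 differences was 0.36, and 7 of them lay above the median of all genes.

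The pocket protein genes were all higher with shTaz as deposited. With the GC and length trends described below removed, Rbl1 was at -0.16, Rb1 at 0.12 and Rbl2 at 0.42. Rb1, at chr14:73183673-73325822 on the minus strand, was at 0.728 FPKM with shLuc and 1.77 FPKM with shTaz, a difference of 0.68. Of all genes, 13.1% differed more in this direction. Because Rb1 is near 1 FPKM the pseudocount matters: the plain ratio of its values was 2.43, and with a pseudocount of 0.1 the difference was 1.17, past 2-fold. Rb1 stands below Trp53 in both columns, 23.3-fold with shLuc and 7.78-fold with shTaz. A value over the whole gene counts every exon left in an altered allele as well as host RNA, so the Rb1 and Trp53 values do not check the genotype.

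Rbl2, which encodes p130, the pocket protein of resting cells, was at 3.44 and 6.64 FPKM with shLuc and shTaz. Its difference of 0.78 was the largest of the 10 genes on this scale, and 9.46% of all genes lay higher. With a pseudocount of 0.1 Rb1 was the larger, at 1.17 beside 0.93 for Rbl2. Rbl2 lies at chr8:91070057-91123844 on the plus strand. Rbl1, which encodes p107, the pocket protein made by cycling cells, differed by 0.38 and lies at chr2:157145893-157204534 on the minus strand. The FPKM of the pocket genes summed to 5.70 with shLuc and 10.7 with shTaz. Rbl2 made up 60.4% and 62.0% of that sum, Rbl1 26.8% and 21.4%, and Rb1 12.8% and 16.5%.

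Both pocket genes that were 1.5-fold higher overlap other genes on the opposite strand, and whether the authors counted reads by strand is not given in the sources used here. Rb1 shares 488 of its 6015 exonic bases with Rcbtb2 and 408 with Lpar6, a receptor gene inside Rb1. Rcbtb2 was at 3.38 and 7.53 FPKM with shLuc and shTaz, and Lpar6 at 3.72 and 8.16 FPKM. Both are above Rb1 in level and differ in the same direction, by 0.96 each. Rbl2 shares 693 of its 7558 exonic bases with Aktip, which was at 8.94 and 14.4 FPKM and differed by 0.63. Without strand, reads from the shared bases cannot be told apart, and their part in the Rb1 and Rbl2 values was not tested.

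Among the CDK inhibitors, the INK4 and ARF gene Cdkn2a was lower with shTaz and the CIP/KIP genes Cdkn1a and Cdkn1b were higher, Cdkn1b only as long as the GC and length trends described below were not removed. Another CIP/KIP gene, Cdkn1c, was lower and is given with the cyclins and CDKs. Cdkn2a was at 400.1 FPKM with shLuc and 256 FPKM with shTaz, a difference of -0.64, with 8.32% of all genes lying lower. Even the lower value placed it near the top of the table, with 163 genes more abundant with shLuc and 197 with shTaz. Cdkn2a lies at chr4:89274471-89294653 on the minus strand. Its neighbour and relative Cdkn2b, which encodes the CDK4 inhibitor p15INK4b, was at 19.5 and 19.8 FPKM, so the ratio of Cdkn2a to Cdkn2b was 20.5 with shLuc and 12.96 with shTaz.

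Cdkn1b, which encodes p27, an inhibitor of CDK2 complexes with cyclins E and A, was at 31.2 and 41.4 FPKM with shLuc and shTaz. Its difference was 0.40. Cdkn1a, which encodes p21, the CDK inhibitor induced by p53, differed by 0.34. The ratio of Cdkn1b to Cdkn1a was 1.53 and 1.60, so both genes differed by about the same factor. Cdkn1b lies at chr6:134920401-134925513 and Cdkn1a at chr17:29090976-29100727, both on the plus strand.

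Trp53 was lower with shTaz, while both genes of its inhibitors were higher as deposited. With the GC and length trends described below removed, Mdm2 was still higher (0.25) but Mdm4 was lower (-0.24). Trp53 was at 17.0 FPKM with shLuc and 13.8 FPKM with shTaz, a difference of -0.28, with 22.7% of all genes lying lower. It lies at chr11:69580359-69591873 on the plus strand. Mdm2, the ubiquitin ligase gene whose product marks p53 for degradation, was at 6.75 and 10.5 FPKM, a difference of 0.57 that falls just short of 1.5-fold on this scale. The ratio of Mdm2 to Trp53 was 0.398 with shLuc and 0.766 with shTaz.

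Mdm4, whose product binds p53 and blocks its activation domain, was at 2.09 and 2.74 FPKM and differed by 0.27. Mdm2 lies at chr10:117688875-117710758 and Mdm4 at chr1:132959484-133030561, both on the minus strand. The 10th gene, Sesn2, encodes sestrin 2, a leucine sensor that restrains mTORC1 and is induced by p53 and by ATF4. Sesn2, at chr4:132492032-132510501 on the minus strand, was at 2.73 and 2.65 FPKM, a difference of -0.03 and the smallest of the 10. Of these genes that p53 induces, Mdm2 and Cdkn1a were thus higher with shTaz as deposited and Sesn2 was nearly equal. With the GC and length trends described below removed, Sesn2 (0.21) lay close to Mdm2 (0.25), and Cdkn1a was at 0.45.

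The differences of the 10 genes lay along the base composition of their transcripts. Across all genes with a known transcript (11055), the Spearman correlation of the difference with GC content was -0.56, and with transcript length 0.30. Over the 10 genes the correlation with GC content was -0.65, as a description across genes that share the same libraries. Rb1, Rbl1, Cdkn1b, Mdm4, Mdm2 and Rbl2 had transcripts of 41.2% to 47.0% GC, under the median of 50.2% for all genes, and all 6 were higher with shTaz. Trp53, Cdkn1a, Sesn2 and Cdkn2a had 53.3% to 60.2% GC, and of these Cdkn1a alone was higher.

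**Figure D2:**
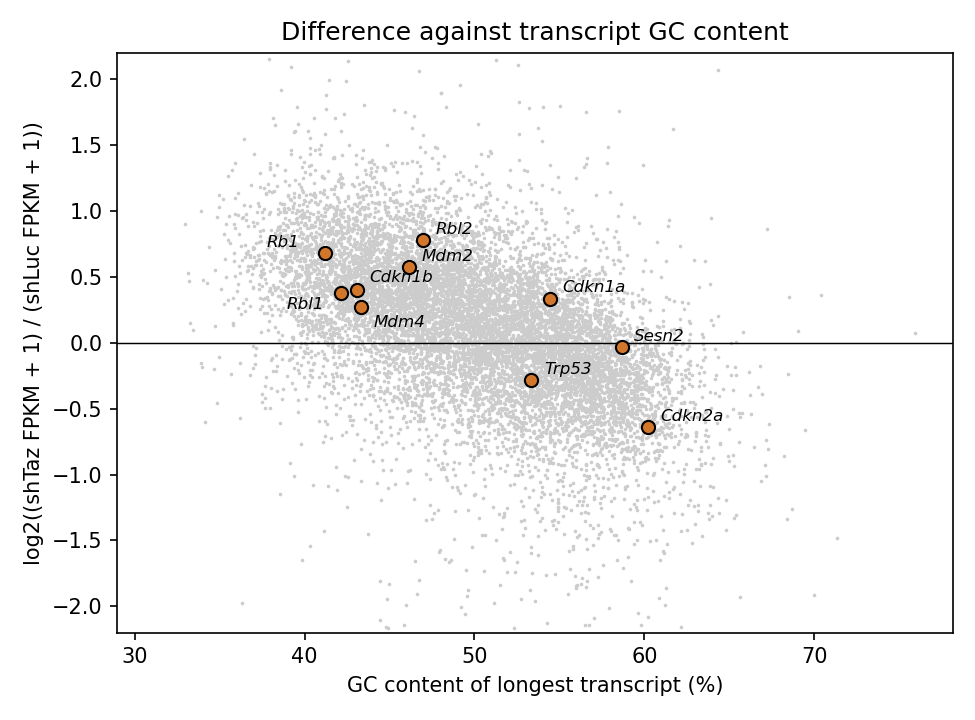
Difference between the columns (y axis, log2 scale) against GC content of the longest transcript (x axis, percent) for 11055 genes (gray) and the 10 RB and p53 genes (orange, named), with 64 genes outside the plotted range. Rb1 at 41.2% GC and Cdkn2a at 60.2% GC lie near opposite ends of the sloping cloud.

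When the trends of GC content and length over all genes were removed, no gene of the 10 differed by 1.5-fold, where 7.29% of all genes were still higher and 8.94% lower at that size. The difference of Rb1 was then 0.12, that of Rbl2 0.42 and that of Cdkn2a -0.02. Rbl1 (-0.16), Mdm4 (-0.24), Cdkn1b (-0.11) and Sesn2 (0.21) changed sign. Trp53 stayed where it was, at -0.29, and Cdkn1a was further up, at 0.45, the highest of the 10. Directions kept after trend removal were thus those of Rb1, Rbl2, Mdm2 (0.25) and Cdkn1a, which were higher, and of Trp53 and Cdkn2a, which were lower, the last by almost nothing. The median of the 10 was 0.05, with 5 genes higher and 5 lower.

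**Figure D3:**
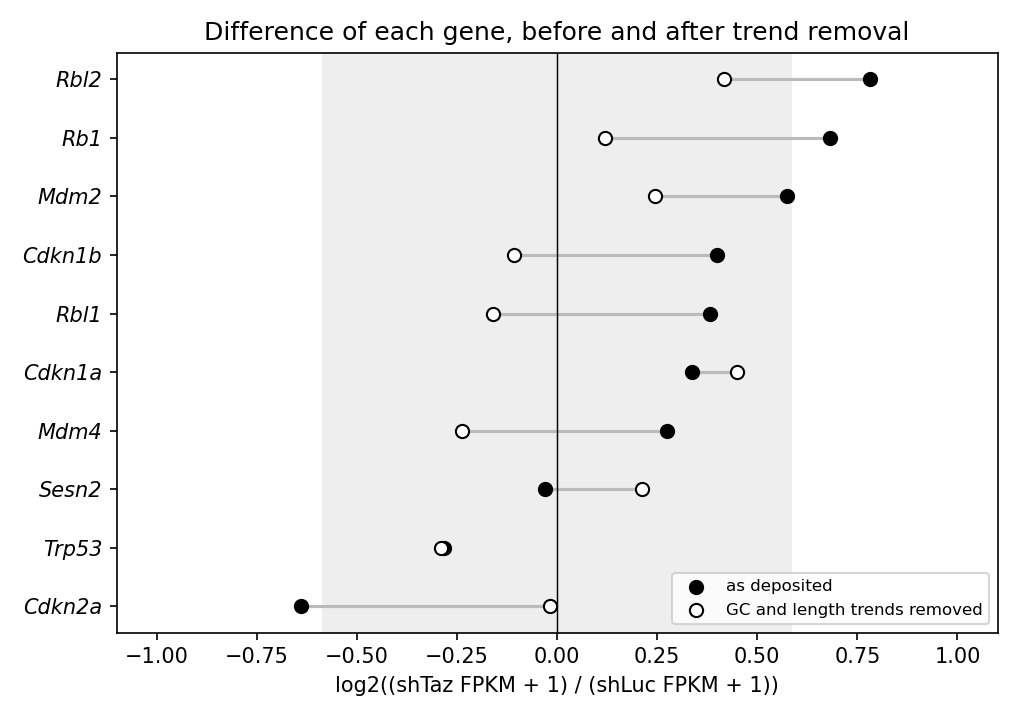
Difference of each of the 10 genes (x axis, log2 scale) from the deposited values (filled) and after removal of the GC and length trends (open), with the band of less than 1.5-fold in gray. Rbl2, Rb1 and Cdkn2a lie outside the band as deposited, and all 10 lie inside it after trend removal.

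Other genes that p53 can induce differed in both directions. Of 40 listed targets beyond the 10 genes, 37 had a mean of at least 1 FPKM. Of these 9 were 1.5-fold higher and 2 lower with shTaz, with a median of 0.28. The shares of all genes at this size, here and for the lists below, were 17.3% higher and 9.96% lower as deposited. With the GC and length trends removed they were 7.29% higher and 8.94% lower. The lists share a few genes. Trp53inp1, a p53-induced gene of cell death and autophagy, was at 0.697 and 2.45 FPKM with shLuc and shTaz, Perp, a desmosome gene, at 12.8 and 25.7 FPKM, and the cyclin G1 gene Ccng1 at 2.46 and 5.64 FPKM. Btg2, an antiproliferative gene, was lower, at 10.02 and 4.83 FPKM. With the trends removed 4 were higher and 1 lower, with a median of 0.06. Btg2 was then at -1.07 and Perp at 0.77.

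Few of the genes that act on p53 differed by this size. Of 25 regulators with a mean of at least 1 FPKM, 2 were 1.5-fold higher and none lower, with a median of 0.19. Chek2, the checkpoint kinase gene, was at 2.52 and 7.02 FPKM with shLuc and shTaz, and the ubiquitin ligase gene Huwe1 at 10.9 and 18.2 FPKM. The p53 relative Trp63 was listed at 0 with shLuc and at 0.112 FPKM with shTaz. After trend removal 1 was higher and 1 lower, with Chek2 at 0.93 and a list median of -0.08.

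Among the E2F factors and their cofactors, 4 of 23 genes were 1.5-fold higher and 1 lower, with a median of 0.25. Lin9, a subunit of the MuvB complex that works with p107 and p130, was at 0.396 and 1.99 FPKM with shLuc and shTaz. Rbbp7, a histone-binding partner of RB, was at 51.0 and 95.5 FPKM, and the activating factor gene E2f2 at 3.27 and 6.22 FPKM. Lin37, another MuvB subunit, was lower, at 12.0 and 7.0 FPKM. With the trends removed, 2 were higher and none lower, E2f2 at 0.84 and Lin9 at 0.63, and the median was -0.03.

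Of 40 E2F target genes 32 were higher and 8 lower with shTaz, where 58.3% of all genes were higher, and the size was mostly small. Among them 10 were at least 1.5-fold higher and 1 lower, and the median difference was 0.34. The cyclin E1 gene Ccne1 was at 1.70 and 5.03 FPKM, the chromatin remodeler gene Hells at 2.75 and 7.26 FPKM, the histone methyltransferase gene Ezh2 at 6.27 and 12.2 FPKM and the histone mRNA binding gene Slbp at 9.69 and 17.7 FPKM. With the trends removed, Ccne1 (1.21) was the 1 gene that remained 1.5-fold higher beside 3 lower, and the median was 0.10. In direction 27 were then higher and 13 lower, beside 50.2% of all genes higher.

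Of 22 cyclins, CDKs and partners, 3 were 1.5-fold higher and 2 lower, with a median of 0.16. The CIP/KIP relative Cdkn1c, which encodes p57, was at 1.90 and 0.242 FPKM with shLuc and shTaz, opposite in direction to Cdkn1a and Cdkn1b. The cyclin D2 gene Ccnd2 was at 7.04 and 16.3 FPKM, and Cul1, the scaffold of the ubiquitin ligase that degrades p27, at 7.003 and 13.8 FPKM. Ccne1, also counted here, is described above. With the trends removed, 3 were 1.5-fold higher and 5 lower, beside 7.29% and 8.94% of all genes. Cdkn1c was then at -0.85 and Ccnd2 at 0.74.

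Of 19 sestrins and genes of the mTORC1 input, 4 were 1.5-fold higher and 1 lower, with a median of 0.19. Sesn1, the other sestrin gene induced by p53, was at 8.83 and 15.1 FPKM with shLuc and shTaz, unlike the nearly equal Sesn2. The ratio of Sesn1 to Sesn2 was 3.24 and 5.71. Prkaa1, a catalytic AMPK subunit, was at 2.18 and 5.37 FPKM, and the GATOR2 genes Seh1l and Mios, whose complex sestrins bind, were at 8.68 and 17.6 FPKM and at 1.22 and 2.57 FPKM. With the trends removed, none was 1.5-fold higher and 2 were lower. Sesn1 was then at 0.50, and Sesn2 at 0.21.

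**Figure D4:**
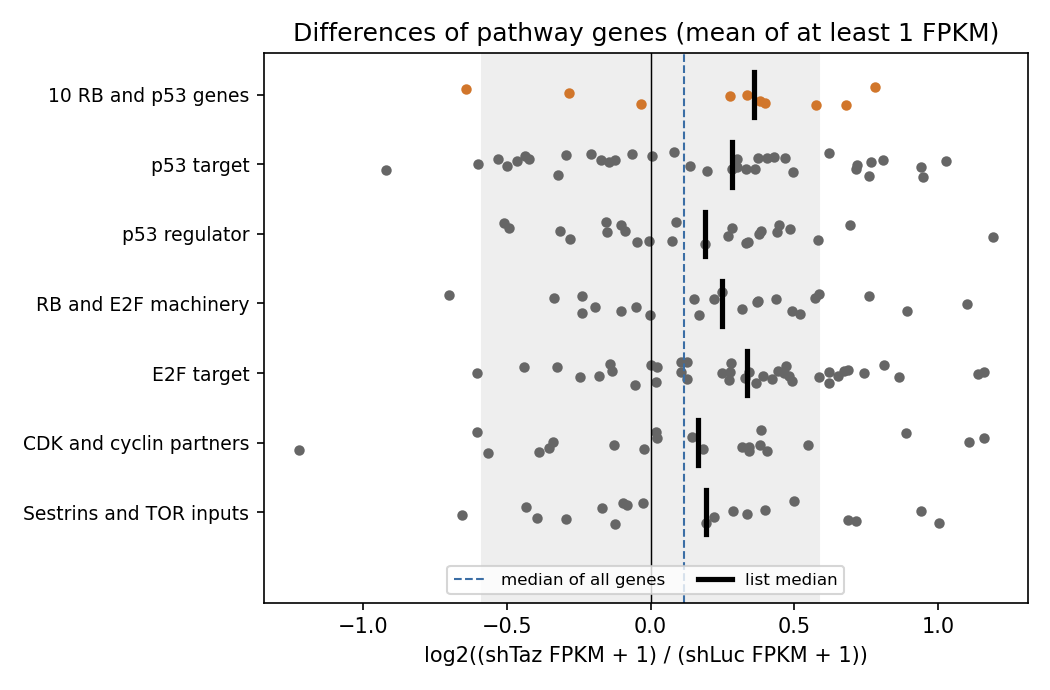
Difference of each gene with a mean of at least 1 FPKM (points, x axis, log2 scale) in the 10 RB and p53 genes and in 6 lists of related genes (y axis, points spread vertically for visibility), with list medians as black bars, the median of all genes dashed and the band of less than 1.5-fold in gray. All list medians lie between the median of all genes, 0.12, and 0.36.

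Markers of macrophages, fibroblasts, endothelium, skeletal muscle and neutrophils differed between the columns. Whether the host or the transplanted cells made this RNA cannot be told apart. The part of such cells in the values above was not tested. The 11 macrophage markers summed to 5236 FPKM with shLuc and 5193 FPKM with shTaz, with none at 0. By mean level C1qa (1868 and 1470 FPKM) and C1qc (1289 and 1107 FPKM) were the most abundant of them, and both were lower with shTaz as deposited. Yet 3 of the 11 were at least 1.5-fold higher and none lower, with a list median of 0.36: Ptprc (3.96 and 10.7 FPKM), Fcgr3 (137 and 251 FPKM) and Mrc1 (12.3 and 20.7 FPKM). The 9 fibroblast markers summed to 2172 and 1380 FPKM, with 6 of 9 at least 1.5-fold lower with shTaz and none at 0. By mean level they were led by Col1a1 (1375 and 841 FPKM) and Col3a1 (372 and 371 FPKM). Yet 5 of the 9 were at least 2-fold lower and 1 was higher, with a list median of -1.27. The 9 endothelial markers summed to 149 and 98.1 FPKM, with 4 of 8 that had a mean of at least 1 FPKM at least 1.5-fold lower and none at 0, led by mean level by Plvap (67.2 and 36.2 FPKM) and Cdh5 (16.1 and 15.01 FPKM). The 8 skeletal muscle markers summed to 24.8 and 61.1 FPKM, and Acta1, Myh4 and Myh2 were listed at 0 with shLuc. Of the 5 muscle markers with a mean of at least 1 FPKM 4 were at least 1.5-fold higher with shTaz. Tnni2 (21.6 and 28.4 FPKM) was the most abundant of them, and Acta1 was at 14.9 FPKM with shTaz. Of 9 neutrophil markers 8 were listed, summing to 132 and 101 FPKM, with S100a8 and Ngp at 0 with shLuc and Mmp8 and Camp at 0 with shTaz. Mmp9 (125 and 44.99 FPKM) and S100a9 (0.810 and 29.2 FPKM) had the highest means of these and differed in opposite directions. Mmp9 made up most of the shLuc sum. Among the 4 with a mean of at least 1 FPKM, Mmp9 was lower and 3 were at least 1.5-fold higher with shTaz. S100a8 was at 18.6 FPKM with shTaz. With the GC and length trends removed, 10 of the 11 macrophage markers were higher, C1qa (0.21) and C1qc (0.20) among them. At 1.5-fold, 2 of these were higher and none lower. Of the 8 endothelial markers 7 were then lower, none by 1.5-fold, while 6 of the 9 fibroblast markers were still 1.5-fold lower. All 5 muscle markers were 1.5-fold higher, and the neutrophil counts stayed at 3 higher and 1 lower.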

How the data were processed

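The authors deposited 1 table of FPKM values with 1 column per group. The tools named in the submitters' processing notes are Trim Galore and TopHat, and the build is mm10. Versions, the FPKM program, annotation, strand setting and whether replicates were pooled are not given in the sources used here. FPKM corrects for transcript length and library total but not for GC content. Each column's heading matches a label carried by both samples of 1 group. Differences were computed with a pseudocount of 1 FPKM wherever the mean reached 1 FPKM, in Python 3.11.15. Trends of GC content and log10 length were removed by lowess in 2 rounds (span 0.3, statsmodels 0.14.6). Both were taken from the longest GENCODE M21 transcript, found for 94.9% of these genes. The procedure was tested on simulated data with a straight GC trend and large changes in abundant genes. Length trends and small differences were not part of that test. The 10 genes and all lists were chosen with earlier results of these data known. All 10 genes are named. From each pathway list up to 4 genes of at least 1.5-fold were named, largest first, and from each marker list its 2 most abundant genes and those at 0. Further genes in the text were picked with their values in view. Besides trend removal, the alternatives were median-ratio scaling, quantile normalization, a smaller pseudocount (0.1), no filter on low values and a filter at 5 FPKM. Leaving out replicates was not possible with 1 column per group.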

Additional observations from a re-analysis of the deposited data

How the results depend on the processing

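No paired analysis was possible because the table holds 1 column per group and no value per sample. With a pseudocount of 0.1, 1 of the 10 genes (Rb1, 1.17) was 2-fold different. Of all 11650 genes, 996 were then 2-fold higher and 548 lower. At 1.5-fold, 4 of 25 p53 regulators and 8 of 23 E2F factors and cofactors differed. The share of all genes at 1.5-fold was counted only for the main run and with trend removal. With a mean of at least 5 FPKM, which tests fewer genes, 1.5-fold differences were found in 6 p53 targets, 1 p53 regulator, 2 E2F factors and cofactors, 6 E2F targets and 2 cyclins, CDKs and partners. Median-ratio scaling gave a median of 0.24 for the 10 genes, beside 3e-05 for all genes, and 6 of 40 E2F targets at 1.5-fold. In the main run these medians were 0.36 and 0.12. Quantile normalization left 0 of the 10 genes at 1.5-fold (Rbl2 0.58, Rb1 0.56 and Cdkn2a -0.35) and 7 E2F targets. With the GC and length trends removed, 0 of the 10 genes were at 1.5-fold and their median was 0.051. At that size were 5 of 37 p53 targets and 2 of 23 E2F factors and cofactors. So were 4 of 40 E2F targets and 8 of 22 cyclins, CDKs and partners. Of all genes, 7.29% were then 1.5-fold higher and 8.94% lower. Rbl2, Trp53, Mdm2, Cdkn1a and Cdkn2a kept their direction in each alternative run, and so did Rb1 in each run that held it. Rbl1, Mdm4, Cdkn1b and Sesn2 turned only with trend removal. Rb1, Rbl1, Mdm4 and Sesn2 had no value in the run with a mean of at least 5 FPKM.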
